A study of Mus musculus with 2 samples.

Results

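The cadherin superfamily and the catenins, the cell adhesion genes whose products join neighbouring cells and tie those contacts to the actin cytoskeleton, were followed through the embryonic mouse forebrain. A set of 38 genes was taken by gene name from the 69691 rows of each gene table: 5 type I and 10 type II classical cadherins, the GPI-anchored Cdh13, 10 protocadherins encoded outside the protocadherin clusters, 3 Celsr, 4 Fat and 1 Dachsous cadherin, 2 alpha-catenins and 2 delta-catenins. All 38 were found, and 34 of them reached 1 TPM (a transcript level scaled to transcript length and to the sum of its library) in both libraries, as did 59.6% of the 21461 nuclear protein-coding genes.

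The series measured total RNA in 1 group, the forebrain of strain B6NCrl at embryonic day 14.5, with 2 libraries numbered as biological replicates 1 and 2. Each library is described as made from the forebrain of 1 pup, collected on different days, although other labels call both samples mixed in sex and give them 1 donor. The animals carried no stated allele and received no stated treatment, so the comparisons are those between genes and between these 2 libraries. The input was 10 ng of RNA over 200 nt, and the expected counts, which are estimated read numbers, summed to 35310017 in replicate 1 and 29250404 in replicate 2.

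Classical cadherins bind the same or a related cadherin on the next cell through extracellular repeats, and their cytoplasmic tails bind catenins. Delta-catenins bind close to the membrane and set how long a cadherin stays at the surface, while alpha-catenins connect the complex to actin. In the forming brain, N-cadherin (Cdh2) junctions hold radial glia together at the ventricular surface, type II cadherins and delta-protocadherins mark regions, layers and nuclei, and the giant Celsr, Fat and Dachsous cadherins take part in planar polarity and axon guidance.

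Marker levels gave the setting for these genes. All 6 neuron markers were detected, led by the tubulin Tubb3 (1486 and 1666 TPM in replicates 1 and 2) and Stmn2 (531 and 672 TPM), and all 6 radial glia markers, led by Fabp7 (1264 and 1336 TPM) and Vim (600.3 and 517 TPM). Markers of other cell types were also detected. The choroid plexus markers summed to 810.2 and 822 TPM, of which Ttr made up 764 and 778 TPM. Meningeal and fibroblast markers summed to 236 and 325 TPM and endothelial markers to 129 and 139.9 TPM. In tissue RNA of this kind, fewer cells of a type and less RNA per cell cannot be told apart.

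Levels within the set ran from Fat2 at 0.02 and 0.04 TPM to Cdh2 at 160.09 and 184.95 TPM. The median over the 38 genes was 9.95 ± 0.912 TPM (SD, n = 2), beside 4.22 ± 0.509 TPM over nuclear protein-coding genes. Together the 38 genes held 749 TPM in replicate 1 and 901 TPM in replicate 2, and 0.226% and 0.254% of the counts. Type I cadherins made up 25.2% of that TPM, alpha-catenins 16.2% and type II cadherins 12.9%. Most neighbours in the order of levels could not be separated: of the 37 adjacent pairs, 6 had deposited TPM intervals that did not overlap in either library, with the same gene higher. Such genes are called apart here. Those steps were Cdh2 over Cdh13, Ctnna2 over Ctnna1, Pcdh9 over Cdh11, Pcdh18 over Dchs1, Cdh22 over Cdh12 and Cdh20 over Fat2.

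**Figure D1:**
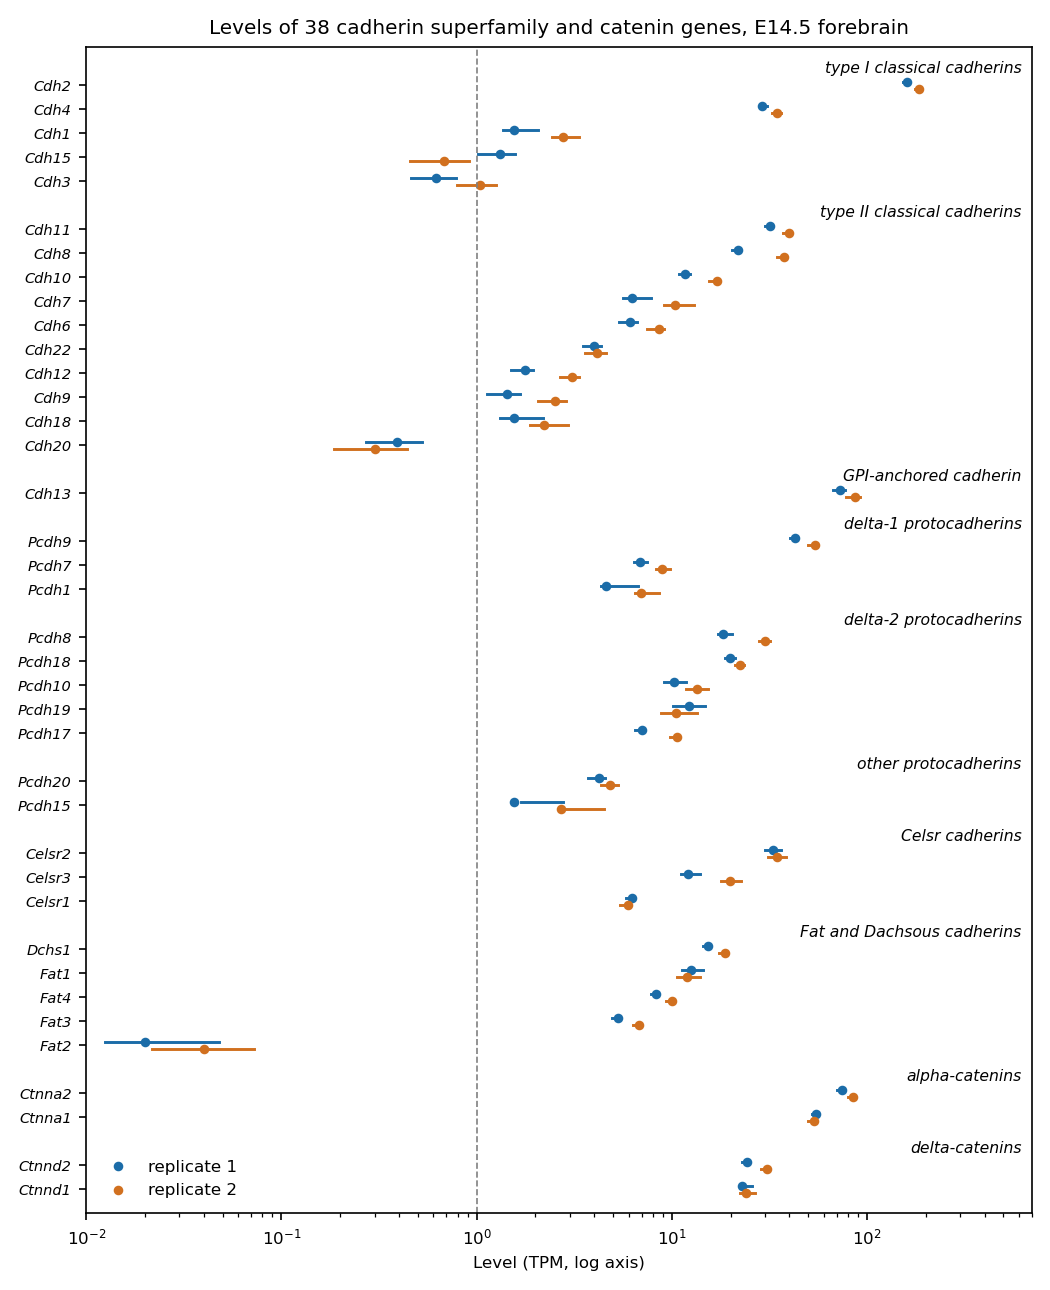
TPM of the 38 genes on a log axis, by class. Points are the 2 libraries, bars the deposited TPM interval of each, and the dashed line 1 TPM. Cdh2 lies at 160.09 and 184.95 TPM, and Fat2, Cdh20, Cdh3 and Cdh15 have at least 1 library left of the line.

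Among type I cadherins, N-cadherin stood above the rest. Cdh2 (ENSMUSG00000024304.10, chr18:16588877-16809246 of GRCm38, minus strand) was the highest of the set in both libraries, at 173 ± 17.6 TPM. Cdh4, the retinal R-cadherin that can pair with N-cadherin, followed at 29.05 and 34.41 TPM. E-cadherin, Cdh1, the cadherin of epithelia, lay at 1.56 TPM from 155 counts in replicate 1 and at 2.77 TPM from 211 counts in replicate 2. Within a library, Cdh2 exceeded Cdh4 by a log2 ratio of 2.44 ± 0.03 and Cdh1 by 6.37 ± 0.44 (SD, n = 2), with the intervals apart in both libraries. The ratio to Cdh4 was nearly the same in the 2 libraries, at 2.46 and 2.43. The ratio to Cdh1 was 6.68 in replicate 1 and 6.06 in replicate 2.

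The remaining type I members were near or under the detection level. P-cadherin, Cdh3, whose gene lies 46.1 kb before Cdh1 on the same strand of chromosome 8, had 0.62 and 1.04 TPM from 55 and 71 counts. Cdh1 exceeded it by a log2 ratio of 1.37 ± 0.06, apart in both libraries. Cdh15, the muscle cadherin, had 1.31 TPM from 82 counts in replicate 1 and 0.68 TPM from 33 counts in replicate 2, the only member with a lower level in replicate 2 among these 5. The general epithelial and the skeletal muscle markers had low levels. Those of the choroid plexus, which also has an epithelium, summed to 810.2 and 822 TPM. Of 6 epithelial markers 4 were detected, led by Cldn3 (4.9 and 7.63 TPM) and Krt18 (6.11 and 4.93 TPM), with sums of 15.9 and 17.0 TPM and no read for Cldn4. Of 6 skeletal muscle markers 1 was detected, Acta1 at 3.73 and 2.89 TPM, with sums of 3.81 and 3.15 TPM and no read for Myf5. The part of such cells in the Cdh1, Cdh3 and Cdh15 levels was not tested.

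Type II cadherins, whose region-specific patterns in the brain are their best-known feature, spread over a wide range. Cdh11 (31.87 and 39.74 TPM) and Cdh8 (21.91 and 37.63 TPM) were the highest, and their intervals lay apart in replicate 1 alone. Cdh10 followed at 11.71 and 16.96 TPM, then Cdh7 at 6.22 and 10.34 TPM, Cdh6 at 6.12 and 8.56 TPM and Cdh22 at 3.97 and 4.16 TPM. Cdh12, Cdh9 and Cdh18 lay between 1.43 and 3.09 TPM in both libraries. Cdh20 was the 1 type II member not detected, with 0.39 and 0.3 TPM from 35 and 21 counts.

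Genomic neighbours among the type II genes differed in level. On chromosome 15 stand 5 of the 10, Cdh6, Cdh9, Cdh10, Cdh12 and Cdh18, and the levels there ran from 1.89 ± 0.46 TPM for Cdh18 to 14.3 ± 3.71 TPM for Cdh10. Cdh10 exceeded Cdh9, which lies 1962 kb before it, by a log2 ratio of 2.89 ± 0.20. Cdh12 and Cdh18, separated by 959 kb, were not apart (0.33 ± 0.22). Cdh7 and Cdh20 lie 4987 kb from each other on chromosome 1, and Cdh20 was lower by a log2 ratio of -4.55 ± 0.79. The set as a whole consists of long genes: the median span was 132 kb, beside 17.8 kb for nuclear protein-coding genes, and Cdh12, Cdh13, Pcdh15 and Ctnna2 exceed 1000 kb.

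Cdh13, or T-cadherin (ENSMUSG00000031841.14, chr8:118283733-119324921, plus strand), lacks the cytoplasmic tail and is held by a lipid anchor. It was among the highest genes of the set, at 72.99 and 86.42 TPM, and exceeded Cdh11 by a log2 ratio of 1.16 ± 0.05 in TPM. That level depended on the transcript models that were counted. The only protein-coding model, which encodes 714 residues, held 63.7 ± 1.51% of the TPM, and models under 1 kb held 32.7 ± 0.23% of the TPM from 6.78% of the reads. From the protein-coding model alone, Cdh13 had 50.7 TPM, and its log2 ratio to Cdh11 was 0.51.

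Protocadherins lack the catenin-binding tail of classical cadherins, and the delta subfamilies are told apart by motifs of their cytoplasmic domains. Of the delta-1 group, Pcdh9 led at 42.96 and 54.13 TPM, above Pcdh7 (6.83 and 8.95 TPM) by a log2 ratio of 2.62 ± 0.04. Pcdh1 lay at 4.62 and 6.99 TPM, not apart from Pcdh7. Of the delta-2 group, Pcdh8, known as paraxial protocadherin (18.24 and 29.91 TPM), and Pcdh18 (19.79 and 22.23 TPM) were the highest, in opposite order in the 2 libraries. Pcdh10, or OL-protocadherin, had 10.32 and 13.49 TPM. Pcdh19, the X-linked protocadherin whose human counterpart is mutated in an epilepsy that mainly affects females, had 12.22 and 10.56 TPM, and Pcdh17 had 7 and 10.63 TPM. Those last 2 genes were in opposite order by their point values in the 2 libraries and were not apart, with a log2 ratio of Pcdh19 over Pcdh17 of 0.40 ± 0.58 and of -0.37 from protein-coding models alone. Pcdh20 (4.22 and 4.85 TPM) and Pcdh15 (1.55 and 2.72 TPM), the latter known from the tip links of inner ear hair cells, were lower.

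The Celsr, Fat and Dachsous cadherins were all detected except Fat2. Celsr2 led its family at 32.97 and 34.63 TPM. Celsr3, which guides forebrain axon tracts, had 12.04 and 19.86 TPM, and Celsr1, the family member of dividing progenitors, had 6.24 and 5.94 TPM. Celsr2 exceeded Celsr1 by a log2 ratio of 2.47 ± 0.10 (1.87 from protein-coding models alone), and Celsr3 exceeded Celsr1 by 1.34 ± 0.56. Celsr3 was below Celsr2 by a log2 ratio of -1.13 ± 0.46, with intervals apart in both libraries, and of -0.64 from protein-coding models alone. In the ligand and receptor pair Dachsous1 and Fat4, Dchs1 (15.32 and 18.67 TPM) was above Fat4 (8.29 and 10.05 TPM). That ratio was the most even of the 26 compared, at 0.89 in both libraries. Fat1 had 12.6 and 12.01 TPM and Fat3 5.3 and 6.78 TPM. Fat2, a cadherin of cerebellar granule cells, had 8 and 10 counts, and Fat1 exceeded it by a log2 ratio of 8.76 ± 0.76.

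Both alpha-catenins were abundant. The neural alpha-N-catenin, Ctnna2 (ENSMUSG00000063063.8, chr6:76881637-77979699, minus strand), had 74.13 and 85.07 TPM. The widely expressed alpha-E-catenin, Ctnna1, had 55 and 53.51 TPM. Ctnna2 exceeded Ctnna1 by a log2 ratio of 0.55 ± 0.17, with the intervals apart in both libraries. The delta-catenins were not apart: the neural Ctnnd2 had 24.21 and 30.63 TPM and p120-catenin, Ctnnd1, had 22.9 and 23.95 TPM, with a log2 ratio of 0.22 ± 0.19.

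**Figure D2:**
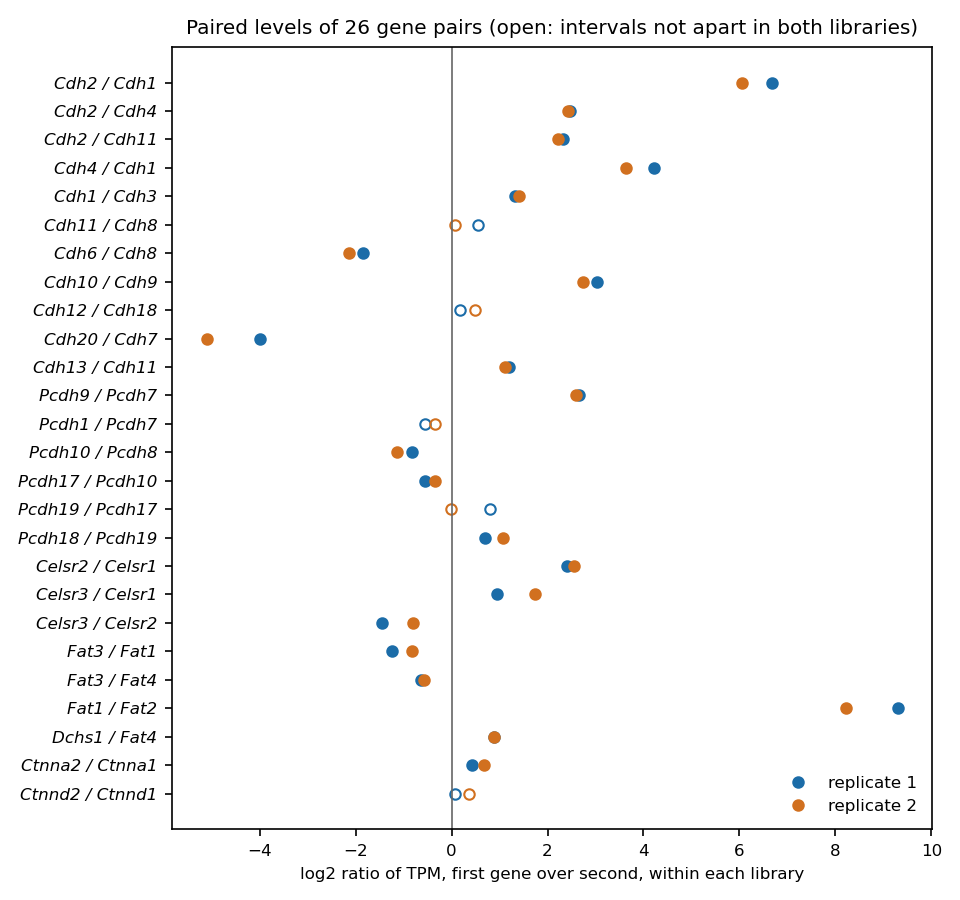
Log2 ratio of TPM, first gene over second, within each library for the 26 gene pairs; 0 is equal levels. Filled points mark the 21 pairs that were apart and open points the 5 that were not, among them Ctnnd2 over Ctnnd1 (0.08 and 0.35).

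Of the 26 pairs, 21 were apart, 14 with the first gene higher and 7 with the second. The 5 that were not apart were Cdh11 with Cdh8, Cdh12 with Cdh18, Pcdh1 with Pcdh7, Pcdh19 with Pcdh17 and Ctnnd2 with Ctnnd1. Such a call covers the counting and assignment error that the deposited intervals hold. Without division by length, these 5 pairs were all apart, with Pcdh17 above Pcdh19. In that setting Pcdh17 was no longer below Pcdh10, nor Fat3 below Fat1, and Pcdh10 and Pcdh8 were no longer apart. With 2 libraries an exact test cannot go below p = 0.5, and none was made.

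Transcript models showed which form of a gene carried its level. Of the 38 genes 12 had a single model and 26 had several. A coding stretch of Ctnna2 and another of Pcdh8 separated transcripts whose models had the same length in the annotation used for counting and in the later one used for coordinates. They are printed because they show what the alternative forms gain or lose. The letters are those of the reference transcripts (GENCODE M21, GRCm38), 5′ to 3′ on the coding strand, with the alternative stretch in capitals and 30 coding bases on either side in lower case. The Pcdh8 stretch is given without its flanks, which stand in the line below it.
Ctnna2 included: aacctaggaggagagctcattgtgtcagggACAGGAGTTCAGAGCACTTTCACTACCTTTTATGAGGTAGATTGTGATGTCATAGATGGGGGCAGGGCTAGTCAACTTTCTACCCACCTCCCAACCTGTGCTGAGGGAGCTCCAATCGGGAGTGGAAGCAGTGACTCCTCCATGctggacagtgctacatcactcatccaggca
Ctnna2 skipped: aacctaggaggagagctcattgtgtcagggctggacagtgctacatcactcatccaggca
Pcdh8 stretch: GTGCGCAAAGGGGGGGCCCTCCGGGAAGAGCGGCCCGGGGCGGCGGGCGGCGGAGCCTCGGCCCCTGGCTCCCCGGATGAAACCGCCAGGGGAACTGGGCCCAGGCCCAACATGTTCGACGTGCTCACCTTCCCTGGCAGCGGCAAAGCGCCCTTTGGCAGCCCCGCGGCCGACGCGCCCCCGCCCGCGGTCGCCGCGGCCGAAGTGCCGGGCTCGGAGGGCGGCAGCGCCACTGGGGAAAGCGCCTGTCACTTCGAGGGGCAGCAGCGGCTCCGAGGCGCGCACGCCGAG
Pcdh8 skipped: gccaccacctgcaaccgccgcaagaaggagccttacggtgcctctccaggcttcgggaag

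In Ctnna2 the stretch is an exon of its own at chr6:76902287-76902430 on the minus strand. Its 144 nt encode 48 codons and keep the reading frame. Transcripts with it held 67.85 and 66.75% of the TPM of Ctnna2 and those without it 28.2 and 27.12%, and the rest were 2 models that do not tell. Among the transcripts that tell, 70.9 ± 0.33% had the exon (SD, n = 2), at 70.6 and 71.1%. The split among the longest forms was less even. The 953-residue form, which has the exon and whose reading frame begins 1 exon later than in the other 2, held 60.62 and 48.65%, the 966-residue form with the exon 6.73 and 17.7%, and the 918-residue form without it 28.2 and 27.12%.

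In Pcdh8 the stretch is the 3′ end of the first exon, at chr14:79768497-79768787 on the minus strand, and lies in the part that encodes the cytoplasmic tail. Its 291 nt encode 97 codons in frame. The longer form, of 1070 residues, and a model with a retained intron held 36.73 and 39.75% of the TPM, and the 973-residue form without the stretch held 63.27 and 60.25%. The shorter form was thus the larger share in both libraries, at 61.8 ± 2.14% against 38.2 ± 2.14%.

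**Figure D3:**
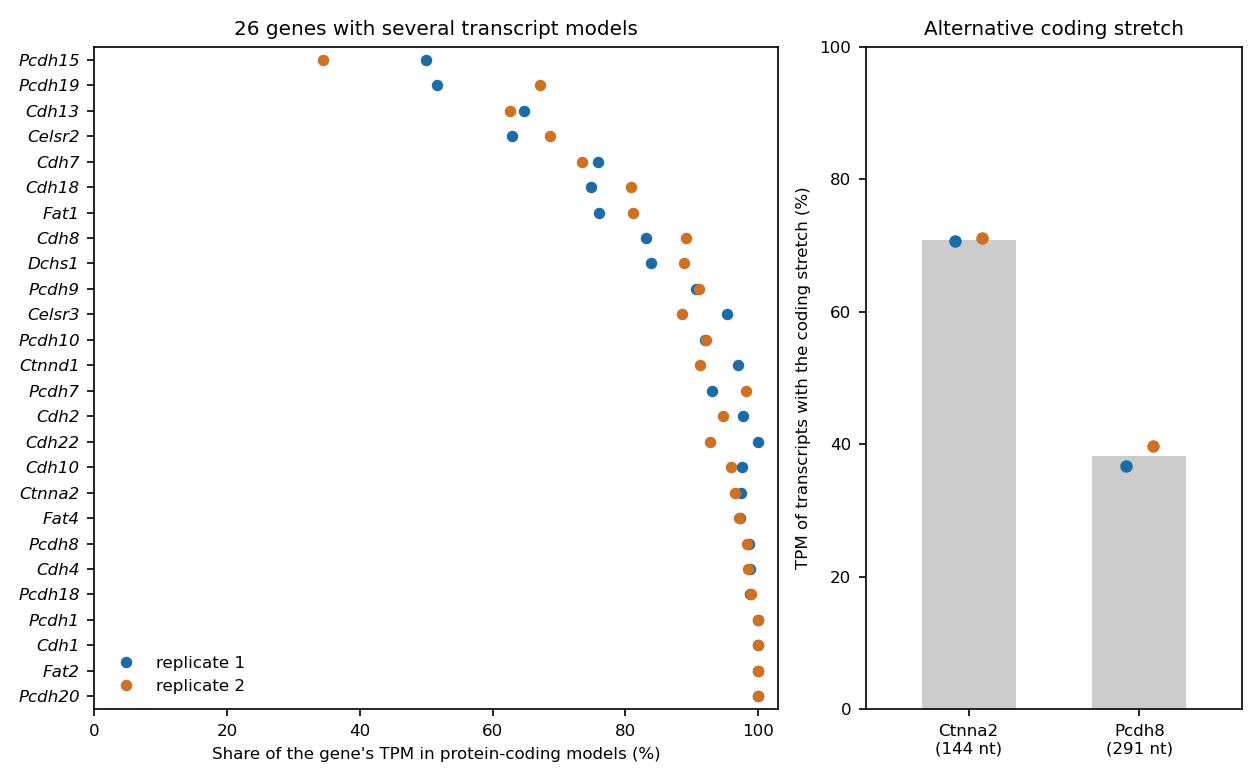
Left, percent of each gene's TPM held by protein-coding models, for the 26 genes with several models, in each library. Right, percent of TPM in transcripts that contain the coding stretch, among transcripts that tell; bars are means, 70.9% for Ctnna2 and 38.2% for Pcdh8, and points the libraries.

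Protein-coding models held 90% or more of the TPM for 29 of the 38 genes and less for 9. The 29 include the 12 genes with a single model, which is protein-coding, so their share could not differ from 100%. This count was not made over other genes. The lowest shares were those of Pcdh15 (50 and 34.4%), Pcdh19 (51.6 and 67.1%), Cdh13 (64.8 and 62.6%) and Celsr2 (62.9 and 68.6%). Models under 1 kb held 20% or more of the TPM of Cdh13, Pcdh19, Celsr2, Celsr3 and Fat1, but between 0.973 and 6.78% of the reads of these genes. For Pcdh19, a 335-nt model outside the coding class held 46.4 and 32.83% of the TPM from 30.6 and 14.4 reads, so its level of 12.22 and 10.56 TPM rests in part on few reads. From models of 1 kb or longer, a limit chosen after seeing the data, Pcdh19 had 6.7 TPM in place of 11.4 and Celsr2 22.3 TPM in place of 33.8. From protein-coding models alone, Pcdh15 had 0.856 TPM in place of 2.14 and was under the detection level.

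Several of the cadherins carried much of their level in models with shorter reading frames. N-cadherin divided between its 906-residue form (36.87 and 35.63%) and an 849-residue form (60.9 and 59.07%), a split that was close in the 2 libraries. The full frame of Cdh8, 799 residues, held 15.46 and 21.86%, while a 711-residue form held 38.76 and 47.87%. For Cdh7, 3 models with the full frame of 785 residues held 16.07 and 10.87%, while 3 models that encode only 76 residues held 49.01 and 39.4%. For Pcdh10 the 1040-residue form held the largest share (47.35 and 51.03%). Pcdh18, in contrast, was carried mainly by its longest listed frame, of 1134 residues (85.17 and 84.72%).

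For p120-catenin, 4 groups of start codons are known, the first of which gives the form typical of mesenchymal cells and the third the epithelial form. Transcripts that start at the first held 60.42 and 68.74% of the Ctnnd1 TPM, those that start at codon 102 of the longest frame held 16.67 and 14.76%, and the 1 that starts at codon 324 held 19.88 and 7.79%. The 7 transcripts that start at codon 55 were listed at 0% in both libraries, although their posterior mean share was 7.41%, so the division among these similar models is imprecise.

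None of the 27 members with a mean of 5 TPM or more met the call for a difference between the 2 libraries. A call asked for a mean of 5 TPM or more, a difference of 1 or more in log2(TPM + 1) and intervals that did not overlap. It was met by 0 of 27 members tested and by 0.164% of nuclear protein-coding genes, 17 of 10368 (0.0868% higher in replicate 2 and 0.0772% lower). With a difference of 0.5 in place of 1, 5 members were called, Cdh7, Cdh8, Pcdh8, Pcdh17 and Celsr3, each higher in replicate 2, beside 7.28% of genes. The other members were too low to be tested. Among them, Fat2 had a TPM ratio of 2 from 8 and 10 counts, and Cdh15 had a CPM ratio of 0.486 from 82 and 33 counts. Each replicate is 1 library, so this compares the libraries, with no replicate check.

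Smaller differences ran mostly 1 way. TPM was higher in replicate 2 for 30 of the 34 members with a mean of 1 TPM or more, beside 74.0% of genes. CPM (reads scaled to the library's sum, not to length) were also higher for 30. The share of genes higher in CPM was not counted. In CPM the median log2 ratio of replicate 2 over replicate 1 was 0.24 for the 34 members and 0.06 for genes. The intervals lay apart with replicate 2 higher for 23 of the 34, beside 35.0% of genes, and with replicate 2 lower for 0, beside 6.68%. The largest differences in log2(TPM + 1) were those of Cdh8 (0.75), Pcdh8 (0.68), Celsr3 (0.68) and Cdh7 (0.65). The added 1 makes such differences smaller for low genes. By TPM ratio, Cdh1 (1.78), Cdh9 (1.77), Cdh12 (1.76) and Pcdh15 (1.75) exceeded Cdh8 (1.72), each with intervals apart. The members lower by point value were Pcdh19, Fat1, Celsr1 and Ctnna1.

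The same direction was more frequent among genes with longer transcripts. The genes compared had a mean of 1 TPM or more. Over genes with a mean transcript length under 1.5 kb the median difference in log2(TPM + 1) was -0.05, and it was 0.14 from 1.5 to 3 kb, 0.23 from 3 to 5 kb and 0.29 at 5 kb or longer. The intervals lay apart with replicate 2 higher for 7.87, 30.7, 49.0 and 64.1% of genes in these classes. The 34 members had a median difference of 0.32, and 0 of them had a length under 1.5 kb. By class their median was 0.33 for 3 members from 1.5 to 3 kb, 0.41 for 16 from 3 to 5 kb and 0.27 for 15 at 5 kb or longer. Their typical length also differs from that of other genes, with a median of 4525 nt over the 38, against 2082 nt over nuclear protein-coding genes. The median TPM ratio over these genes was 1.12, or 0.16 on the log2 scale. Relative to that ratio, 14 members were higher in replicate 2 with intervals apart, beside 15.6% of genes. In the same way 2, Celsr1 and Ctnna1, were lower, beside 18.7%. The part of transcript length in the members' differences was not tested.

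**Figure D4:**
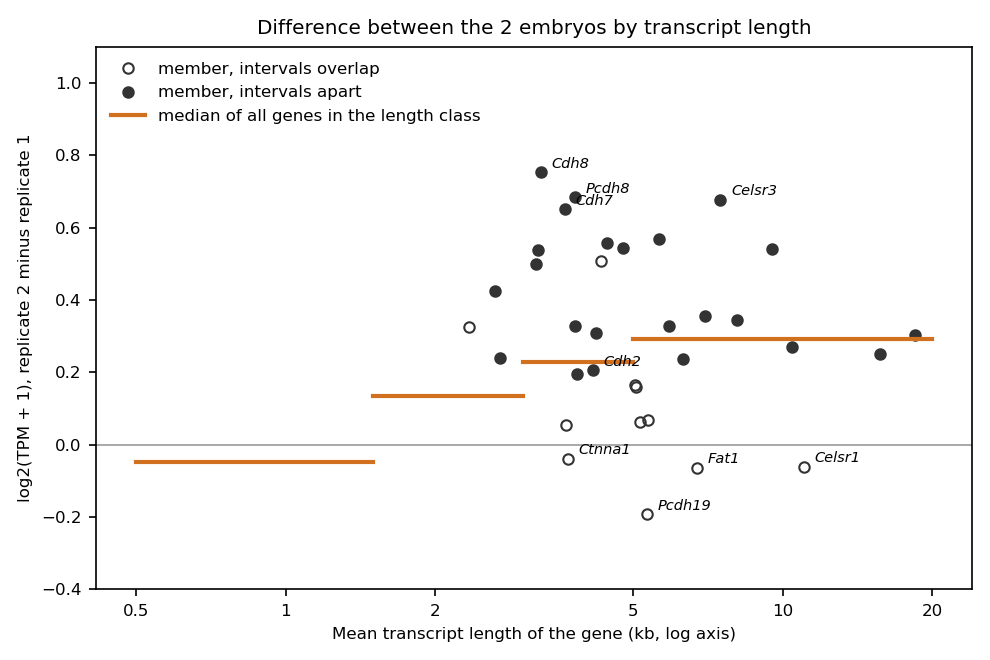
Difference in log2(TPM + 1), replicate 2 minus replicate 1, against mean transcript length (log axis) for the 34 members with a mean of 1 TPM or more. Filled points have intervals apart. Orange lines are medians over nuclear protein-coding genes with the same minimum, in 4 length classes. They run from -0.05 under 1.5 kb to 0.29 at 5 kb or longer.

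TPM divides reads by the mean length of the transcripts estimated to be present, and for a few members TPM and reads moved by different amounts. Celsr3 was 1.65-fold higher in replicate 2 in TPM and 1.32-fold higher in CPM, and its mean transcript length was 8057 nt in replicate 1 and 6939 nt in replicate 2. Cdh7 was 1.66-fold higher in TPM and 1.30-fold higher in CPM, at lengths of 3947 and 3349 nt. Pcdh19 was lower in TPM, with a ratio of 0.864, but had a ratio of 1.05 in CPM, at lengths of 4621 and 6035 nt. For Cdh8 the ratios were 1.72 and 1.51, and for Pcdh8 1.64 and 1.53. Like most members, Cdh8, Pcdh8, Celsr3 and Cdh7 were higher in replicate 2 on both scales.

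Marker genes were compared between the libraries in the same way. Of nuclear protein-coding genes with a mean of 1 TPM or more, 74.0% were higher in replicate 2. All 6 neuron markers and 6 of 6 oligodendrocyte lineage markers were higher in replicate 2, as were 5 of 6 meningeal markers, of which the collagen Col1a1 met the call for a difference (17.12 and 35.51 TPM). The oligodendrocyte lineage markers, led by Olig1 (15.02 and 26.52 TPM) and Pdgfra (5.66 and 8.4 TPM), summed to 32.7 and 52.3 TPM. Of the 6 radial glia markers, 3 were higher in replicate 2, all 3 with intervals apart. Vim and Hes5 (71.43 and 62.11 TPM) were lower with intervals apart. The part of such cell types in the members' differences was not tested.

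Genes that work with the cadherins were taken as lists. Of 17 junction partners, proteins that bind catenins or nectins at adherens junctions, 16 were detected and 1, Ctnna3, was not. The highest were afadin (Afdn, 98.7 ± 14.8 TPM), the actin crosslinker Actn4 (82.6 ± 15.1 TPM) and Vezt (57.3 ± 4.65 TPM). Their intervals lay apart with replicate 2 higher in 7 and lower in 0, beside 35.0% and 6.68% of genes. All 10 planar polarity partners of Celsr, Fat and Dachsous were detected, led by the receptor Fzd3 (41.5 ± 11.7 TPM), the membrane protein Vangl2 (41.3 ± 5.11 TPM) and the kinase Fjx1 (19.7 ± 2.34 TPM), which modifies Fat and Dachsous. Here 6 were higher in replicate 2 with intervals apart and 1, Vangl2, was lower (44.89 and 37.66 TPM), beside the same 35.0% and 6.68%. Of 4 genes for the cleavage or maturation of cadherins, all 4 were detected, among them the protease Adam10 at 39.0 ± 2.23 TPM.

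Several transcription factors of the Snail, Scratch, Zeb and Twist families repress E-cadherin in other tissues through CAGGTG sequences. Of 8 such genes 5 were detected, led by Zeb2 (66.7 ± 13.8 TPM), Zeb1 (26.9 ± 5.01 TPM) and Scrt2 (13.6 ± 0.30 TPM). Promoter windows of 250 bases before to 50 after a start were held in the RefSeq table (GRCm38.p6) for 28 of the 38 members, without Cdh1, Cdh2, Cdh3, Cdh4, Cdh11, Cdh13, Celsr1, Dchs1, Pcdh1 and Ctnna1. CAGGTG or its reverse complement CACCTG, which together cover both strands, was found in 6 of the 28 (21.4%), Cdh7, Celsr2, Ctnna2, Fat1, Pcdh7 and Pcdh15, and in 22.6% of the 27025 genes of that table. For 22 of the 28 a window lies within 1 kb of the gene's GENCODE start, but those of Fat1 and Pcdh15 lie 14761 and 722525 nt from it.

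Outside the set, 22 other cadherin superfamily genes gave a contrast within the family. Of these 9 were detected, with a median of 0.278 ± 0.159 TPM over the 22. The calsyntenins Clstn3 (35.1 ± 9.21 TPM) and Clstn1 (33.1 ± 4.31 TPM) and the X-linked Pcdh11x (14.3 ± 4.11 TPM) were the highest. No read was found for Cdhr5, Dsc1 and Dsg3, the last 2 being desmosomal cadherins of stratified epithelia. A count of 0 allows up to 3 counts, or 0.131 TPM in replicate 1 and 0.170 TPM in replicate 2 for an effective length of 1 kb.

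Some members share sequence with other annotated genes. Exons of 13 of the 38 overlap those of another gene, 10 on the opposite strand and 3 on the same. This count was not made over other genes. The overlaps are those of GENCODE M21, and whether each overlapping gene was in the earlier annotation used for counting was not checked. The longest overlaps were those of Pcdh7 with 4932441J04Rik (2235 nt, opposite strand), Ctnnd1 with Gm28635 (1465 nt, same strand) and Fat4 with C230034O21Rik (674 nt, opposite strand). Whether the counting used strand is not given in the sources used here. Where both genes were counted, reads of these stretches may therefore not be told apart. For 31 members the counts were whole numbers in both libraries, and for 7 they were not.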

How the data were processed

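Total RNA of embryonic forebrain was measured in 2 libraries. Per the deposited notes, reads were assigned to mm10 with GENCODE M4; the aligner, the quantification program and strand use are not given in the sources used here. The deposited tables hold, per the file headers, expected counts (estimated reads), TPM and FPKM scaled by length and library, and each transcript's percent of its gene's TPM. FPKM were not used. The deposited TPM intervals, of unstated level, are centred on the posterior mean, and TPM lay outside them for 2 of the 38 genes in each library. Names, types and coordinates came from GENCODE M21 on the same assembly (GRCm38), by ID without version, for 42462 of 43346 Ensembl genes. Coding lengths were used only where the spliced length was the same in both releases.

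Genes were called detected at 1 TPM in both libraries, and differing at a mean of 5 TPM, 1 in log2(TPM + 1) and intervals apart. In ratios a gene under 3 counts is set to 3 counts. The members, lists, pairs and rules were chosen with earlier results of these data known. Named were all members, the 3 highest of each list of partners and any that differed, the 2 highest markers of each cell type and those with no read; some list members are not reported here, but counts include them. Hes5, Ctnna3, Vangl2 and the transcript and overlap examples were chosen after their values were seen. The calls between the 2 libraries were run on simulated counts. Those counts held counting error alone, and the pair calls were not simulated. Python 3.11.15, pandas 2.3.3, NumPy 2.4.6, SciPy 1.17.1 and matplotlib 3.10.9 were used. Alternatives covered cutoffs, pseudocount, scaling, transcript class and each library alone. The deposited intervals cover counting and assignment error only, and the limits for low counts cover counting error only. The 2 libraries are numbered as biological replicates.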

Additional observations from a re-analysis of the deposited data

How the results depend on the processing

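The count of detected members stayed between 26 (at 5 TPM) and 36 (at 0.5 TPM) around 34, and the count of pairs called between 21 and 24. The median level of the 38 members, 9.95 TPM, was 8.64 TPM from protein-coding transcripts only and 8.77 TPM from transcripts of 1 kb or longer, an alternative chosen after seeing the data, and 9.31 to 10.6 TPM from each library alone. Protein-coding transcripts only moved 4 levels by over 1.5 times, Cdh13, Pcdh19, Pcdh15 and Celsr2, and left 33 members detected. Members that differed between the libraries were 0 under every alternative but a difference of 0.5, which gave 5. Dividing by the median ratio gave 14 members higher and 2 lower in place of 23 and 0. With reads not divided by length, the log2 ratio of Pcdh17 over Pcdh10 turned from -0.45 to 0.00325 and that of Fat3 over Fat1 from -1.04 to 0.44. That setting also took Pcdh10 over Pcdh8 from -0.99 to -0.10, no longer apart. The 5 pairs not apart before became apart, with Pcdh19 over Pcdh17 going from 0.40 to -0.46. Cdh11 over Cdh8 went from 0.31 to 0.69, and Cdh12 over Cdh18 from 0.33 to 1.64. Pcdh1 over Pcdh7 went from -0.46 to -1.39, and Ctnnd2 over Ctnnd1 from 0.22 to 0.42. The members' ranks by TPM and by CPM had a Spearman rho of 0.94, with the largest shift, 12 places, for Fat3, and class medians on the CPM scale were given as these ranks since their unit differs. With each library alone, 35 members were detected, 22 or 23 pairs were apart and 9 or 10 members had a protein-coding share under 90%. From posterior means, 12 members had such a share. No paired analysis was possible because the design has 1 group. Depth limits the genes under 1 TPM: Fat2 rests on 8 and 10 counts and Cdh20 on 35 and 21.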
